A study of Rattus norvegicus with 4 samples.

Results

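The neuron-rich spots of the healthy control (HC) trigeminal ganglion were examined by spatial transcriptomics. They were the 600 spots with the highest summed level of Avil, Isl1, Scn10a, Scn11a and P2rx3 among the 1348 HC spots with 10000 or more UMIs (unique molecular identifiers, each standing for 1 captured mRNA molecule). They made up 29.8% of the 2013 HC spots, in a series of 6773 spots. Levels are given as CPM, the UMIs of a gene divided by all UMIs of the spot or of the pooled spots and multiplied by 1000000. Visium spots are 55 μm wide and can hold several cells or parts of cells, so that more neurons and more RNA per neuron cannot be told apart.

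Rat trigeminal root, ganglion and proximal branches had been laid on 4 capture areas, 1 each for TN1, TN2 and TN3 and 1 for HC. The files tell the areas apart only by a number after each spot barcode, and 1 to 3 were read as TN1 to TN3 and 4 as HC from the order in the series description, since no label gives the numbers. The TN areas held the operated side of 3 wild-type rats of the trigeminal neuralgia model, in which the nerve root is compressed on a single side. The HC area held uncompressed tissue of 2 animals. Their spots carry no animal label, and HC therefore counts as 1 sample. The study's methods describe adult male Sprague-Dawley rats and sham-operated controls, whereas the series description takes HC from the healthy side of TN animals, and the same rats may thus have given both kinds of tissue. Spot barcodes come from a common set on every area. Of the 2013 HC barcodes, 979 also occurred in TN1, 758 were shared with TN2 and 815 with TN3, and 52 were found in all 4 areas, always as separate spots.

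The trigeminal ganglion holds the cell bodies of the sensory neurons of the face. Small neurons with thin fibers detect painful heat, chemicals and pressure. One class of them releases the peptides substance P, made from Tac1, and CGRP, made from Calca and Calcb. Other small neurons carry few peptides and use P2rx3, an ATP-gated channel, and Ret. Large neurons with thick myelinated fibers serve touch, and their axons are filled with the neurofilaments Nefl, Nefm and Nefh. Each cell body is wrapped by satellite glia, and its axon by Schwann cells. The sodium channels Scn10a and Scn11a, Avil (an actin-binding protein) and the transcription factor Isl1 are used to mark sensory neurons.

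The 600 spots held 21449245 UMIs. The median spot had 32191 UMIs (lowest 10346, highest 97562) and 5746 genes, against 10508 UMIs (88 to 97194) and 3063 genes in the other 1413 HC spots. Mitochondrial genes took a median of 4.35% of the UMIs in neuron-rich spots and 8.17% in the other spots. The summed level of the 5 marker genes ran from 1307 to 3401 CPM, with a median of 1694. The last spot included had 1307.19 CPM and the first one left out 1305.94 CPM. The border therefore cuts through a continuous range. Avil made up 50.5% of the summed level, P2rx3 19.97%, Scn10a 13.9%, Scn11a 12.5% and Isl1 3.23%. Of the other HC spots, 665 had under 10000 UMIs, and some of these had a higher summed level from few molecules.

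**Figure D1:**
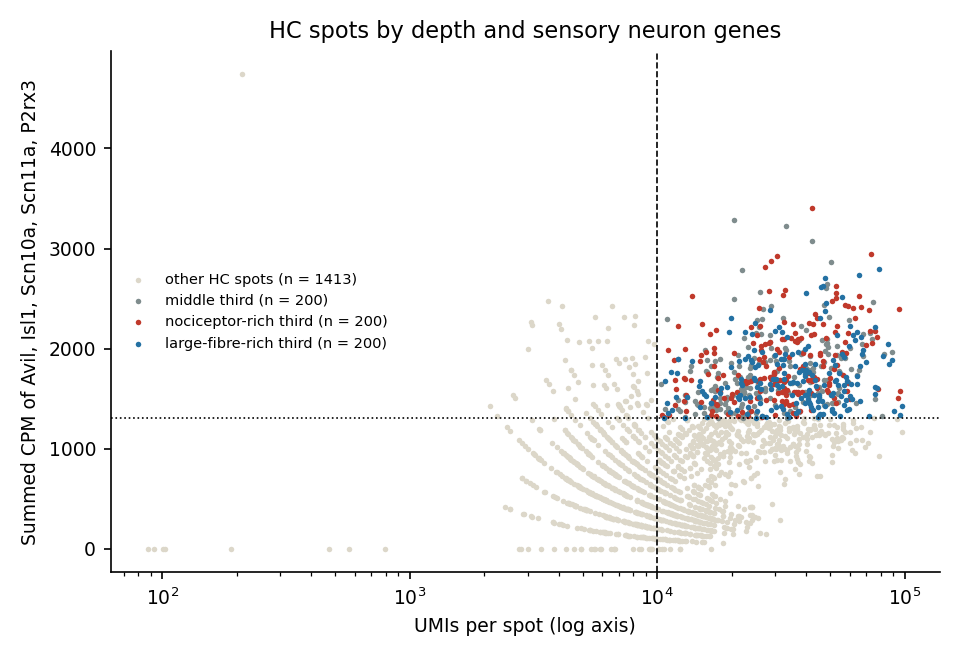
Each point is an HC spot, placed by its UMIs (log axis) and the summed CPM of the 5 marker genes; the dashed line marks 10000 UMIs and the dotted line 1307 CPM. The 600 neuron-rich spots fill the upper right, and nociceptor-rich and large-fibre-rich spots, 200 of each, are mixed along both axes.

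The genes that chose the spots were at 924 CPM (Avil), 57.9 CPM (Isl1), 244 CPM (Scn10a), 224 CPM (Scn11a) and 364 CPM (P2rx3) in the neuron-rich spots, and at 453, 33.6, 108, 82.8 and 139 CPM in the other HC spots. These values follow from the choice. The other HC spots were thus not free of neuronal RNA. After thinning each spot to 10000 UMIs, at least 1 UMI of P2rx3 was found in 93.8% of neuron-rich spots and in 64.7% of the other spots of that depth, and of Tac1 in 100% and 92.9%. Further markers of the ganglion's neurons were high in the chosen spots, among them Prph at 3838 CPM, an intermediate filament of sensory neurons, and Uchl1 at 7061 CPM. Some defining markers were near 0. Pou4f1 was at 0 CPM, with 0 of 21449245 UMIs, which allows up to 0.140 CPM (3 counts), Prdm12 was at 0.326 CPM and Eno2 at 1.17 CPM. Whether the capture or the annotation misses these genes was not tested, so the low values do not show that the neurons lack them. Glia were also present. The 10 Schwann myelin genes summed to 17325 CPM over the 600 spots, and Apoe, abundant in satellite glia, was at 9489 CPM. The chosen spots were therefore rich in neuronal RNA but not made of neurons alone.

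The neuron-rich spots were set beside the other HC spots to ask which further genes stood apart. This contrast comes from the rule that chose the spots and from 1 sample, so it is given as a description with no test. Of 8908 genes with 200 or more UMIs in both sets together, 86 were 2-fold or more higher in neuron-rich spots (0.965%). A further 346 were 2-fold or more lower (3.88%). The 86 became 29 with 400 spots and 319 with 800. Over all 8908 genes, 5663 were higher and 3245 lower, and the median gene was 0.14 higher on the log2 scale. Ratios carry 95% exact intervals, which cover counting error only.

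Neuronal lists were higher throughout. Of the 17 general sensory neuron genes, 12 reached 200 UMIs, and all 12 of these were higher, with a median log2 ratio of 0.80. Scn9a, a sodium channel of sensory neurons, was at 107 CPM against 50.9 CPM, and Gap43, a growth cone protein, at 502 CPM against 230.0 CPM. The 7 peptidergic nociceptor genes that reached 200 UMIs had a median of 1.01, with 6 higher. Calca was at 1353 CPM against 650 CPM, 2.08-fold (interval 2.04 to 2.13). Trpv1, the heat and capsaicin channel, was at 86.7 CPM against 41.9 CPM. The exception was Gal, which encodes the peptide galanin, at 22.5 CPM against 35.3 CPM. The 6 non-peptidergic and itch genes that reached 200 UMIs were all higher (median 1.03), with Cd55 at 70.2 CPM against 27.9 CPM and Lpar3, a receptor for lysophosphatidic acid, at 13.9 CPM against 5.38 CPM. Sst, which encodes somatostatin, was at 39.2 CPM against 17.2 CPM. Members of this list found in few molecules or none were Mrgprd at 0 CPM, Il31ra at 0.0466 CPM and Osmr at 0.0466 CPM. Of the cold and C-fibre touch genes, only Tafa4 reached 200 UMIs, at 9.09 CPM against 3.92 CPM, and Trpm8, the cold channel, was at 2.42 CPM.

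Large-fibre genes stood less far apart. P2rx3 and Scn10a, with 19.97% and 13.9% of the summed level that chose the spots, are genes of small neurons. The difference between nociceptor and large-fibre lists thus cannot be told apart from the choice. Of the 20 with 200 or more UMIs, 17 were higher, with a median log2 ratio of 0.40. Nefl was at 6695 CPM against 4809 CPM, Pvalb, a calcium-binding protein, at 255 CPM against 216 CPM, and Spp1, which encodes osteopontin, at 610 CPM against 561 CPM. Ntrk2, a receptor for brain-derived neurotrophic factor, was at 163 CPM against 228 CPM. The 8 genes of synaptic release and the 12 of excitability that reached 200 UMIs were all higher, with medians of 0.62 and 0.77. Among them were Cplx1 at 1446 CPM against 964 CPM, and Cacna1b, a subunit of the N-type calcium channel, at 51.6 CPM against 24.7 CPM. Of 81 respiratory chain genes, 72 were higher (median 0.27), and of 68 ribosomal protein genes, 66 were lower (median -0.28).

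The 10 genes with the highest ratio outside the rule were Cfap57, S100a5, Ptgir, Igfbpl1, Exoc1l, Syt15, Cst12, Lpar3, MGC116202 and Cd55. Cfap57 was at 10.5 CPM against 3.42 CPM, 3.07-fold (2.33 to 4.09). Ptgir, the receptor for prostacyclin, a lipid that sensitises nociceptors, was at 57.8 CPM against 21.2 CPM, 2.73-fold (2.44 to 3.06). The 10 genes with the lowest ratio were Ctss, Ca14, Pou3f3, Slc39a12, Mog, Aldh1l1, Tmem125 (1 of the 2 gene IDs with this symbol), Sall1, Aqp4 and Olig2, from 9.67-fold lower for Ctss (7.36 to 12.9) to 6.03-fold for Olig2 (4.72 to 7.80). Ctss is known in microglia and macrophages. Mog and Olig2 belong to oligodendrocytes, and Aqp4 and Aldh1l1 to astrocytes, cells of the central part of the root.

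Lists of other cells were lower. All 8 central myelin genes were 2-fold or more lower (median -2.39), with a summed level of 213 CPM against 1060 CPM and Mobp the most abundant. The 5 astrocyte genes with 200 or more UMIs had a median of -2.30, and the list summed to 516 CPM against 2541 CPM, with Gfap the most abundant. Blood and bone genes were all lower (9 of 9, 8 of them past 2-fold), at 535 CPM against 1220 CPM. Their median was -1.36, but -0.74 against other HC spots with 10000 or more UMIs and -0.89 after thinning. The 7 macrophage genes with 200 or more UMIs had a median of -1.29 and the 4 pituitary genes -1.56. Of the 7 endothelial genes, 3 were higher and 4 lower (median -0.33), and of the 4 nerve injury genes with 200 or more UMIs, 2 were higher and 2 lower. The genes of central inhibitory neurons summed to 1.17 CPM against 1.06 CPM. Schwann myelin genes were lower in 10 of 10 cases, with a median of -0.42. This direction turned when 800 spots were taken (median 0.00827) or when the CPM of each spot were averaged (0.126). Of the 5 satellite glia genes with 200 or more UMIs, Fabp7, Glul and Slc1a3 were lower, and Apoe (9489 CPM against 8196 CPM) and Cdh19 (41.5 CPM against 38.1 CPM) were higher.

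**Figure D2:**
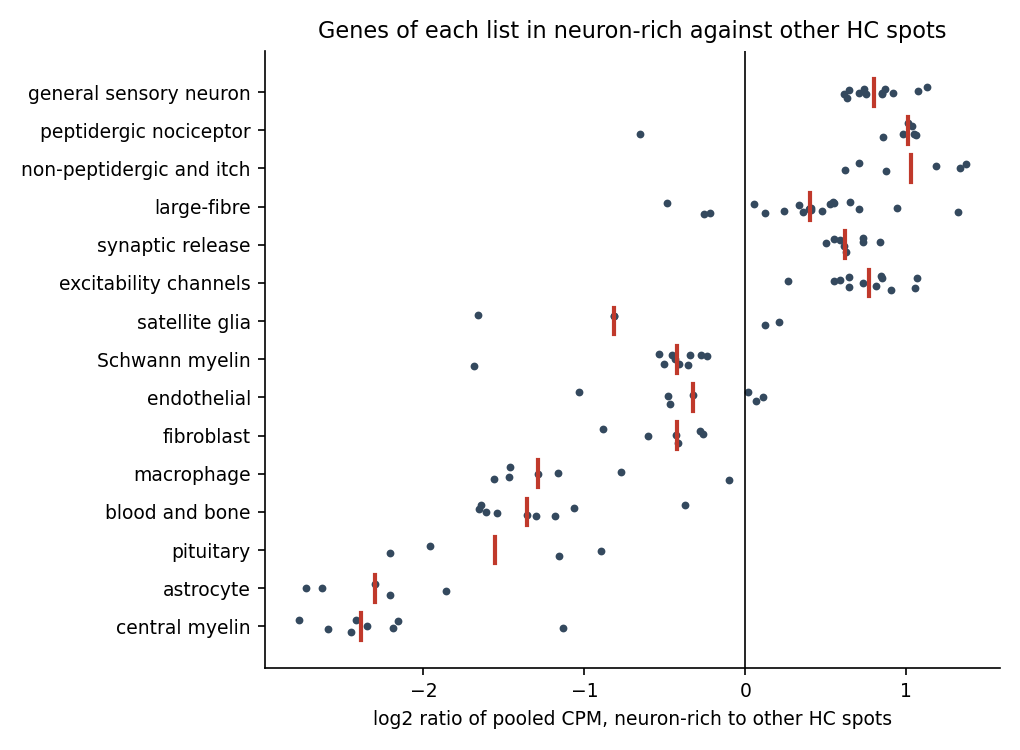
Log2 ratio of pooled CPM between the 600 neuron-rich spots and the other 1413 HC spots, for every gene with 200 or more UMIs on each list; points are genes and red bars list medians. Neuronal lists lie to the right of 0, Schwann myelin just to the left, and central myelin and astrocyte genes farthest to the left.

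The 600 spots varied among themselves. After thinning to 10000 UMIs, the median variance to mean ratio over 3312 genes was 1.06, close to the 1 that counting alone gives, while it was 9.14 for Tac1 and 6.41 for Calca. By variance beyond counting relative to the squared mean, the leading genes were S100a8 (8.60) and S100a9 (7.93), both known from neutrophils, and S100g (2.64), which encodes a calcium-binding protein. Hemoglobin genes came next, with Hba-a3 at 1.96 and 2 gene IDs of Hba-a2 at 1.55 and 1.40. Further down, Calb2, another calcium-binding protein, was at 1.35 and Chrna3, a nicotinic receptor subunit, at 0.857. These genes were picked for description after their values were seen. Per spot, Tac1 ran from 147 CPM through a median of 871 CPM to 10094 CPM, and Calca from 304 CPM through 1101 CPM to 11010 CPM. Across the 600 spots, log2 levels of Tac1 and Calca had a Pearson correlation of 0.50 (Spearman 0.45). Nefh and Nefl had one of 0.69 (0.64), whereas that of Tac1 and Scn10a was near 0, at 0.028 (0.015). These are descriptions over spots that share 1 library and neighbouring tissue, so no p is given.

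Because the peptide precursors Tac1 and Calca varied together, their promoters are shown, as RefSeq gives them for the GRCr8 build, 250 bases up to the start of the gene on its own strand. Tac1 lies on the plus strand, chr4:36645333-36645582, and Calca on the minus strand, chr1:178317530-178317779. Capitals mark TGACG or its reverse complement CGTCA, the half-site of the cyclic AMP response element.
Tac1: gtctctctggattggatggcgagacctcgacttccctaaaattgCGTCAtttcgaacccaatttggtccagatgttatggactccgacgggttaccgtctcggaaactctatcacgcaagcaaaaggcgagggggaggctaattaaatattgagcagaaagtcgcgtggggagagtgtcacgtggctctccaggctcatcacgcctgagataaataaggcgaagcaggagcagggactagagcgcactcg
Calca: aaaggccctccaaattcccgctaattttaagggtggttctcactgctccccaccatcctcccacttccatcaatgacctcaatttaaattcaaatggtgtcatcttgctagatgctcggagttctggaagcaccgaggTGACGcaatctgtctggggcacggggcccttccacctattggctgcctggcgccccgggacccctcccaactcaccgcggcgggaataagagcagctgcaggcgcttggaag
Each held 1 match, starting 206 bases before the start in Tac1 and 112 bases before it in Calca. Of 33469 promoters of this length, 18.2% held the motif on either strand, so a match is a description only.

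Within the 600 spots, the share of Tac1 and Scn10a in the UMIs of Tac1, Scn10a, Nefh and Nefm was used to set nociceptor-rich against large-fibre-rich spots. The share ran from 1.76% to 61.9% with a median of 10.2%. The 200 spots with the highest share began at 11.76% (the next spot had 11.75%) and are called nociceptor-rich. The 200 with the lowest ended at 8.68% (the next had 8.70%) and are called large-fibre-rich. Most spots lay close to these borders, with 37 spots above 25% and 3 above 50%. The share was mostly a matter of Tac1, with 14267 UMIs in nociceptor-rich and 4933 in large-fibre-rich spots, whereas Scn10a had 1956 and 1574. Nefh had 29557 and 48228 UMIs and Nefm 33623 and 56386. These 4 genes made the split and are not results. The nociceptor-rich spots had a median of 32001 UMIs and the large-fibre-rich spots 37645.5.

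Of 6716 genes with 200 or more UMIs in both sets of 200 spots together, 42 were 1.5-fold or more higher in nociceptor-rich spots (0.625%) and 21 were 1.5-fold or more lower (0.313%). Over all 6716 genes, 3525 were higher and 3191 lower, with a median of 0.01. With 1 HC sample, these values too have no test.

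All 7 peptidergic nociceptor genes with 200 or more UMIs were higher in nociceptor-rich spots, 6 of them past 1.5-fold, with a median log2 ratio of 0.82. Calca was at 1976 CPM in nociceptor-rich, 1252 CPM in middle and 886 CPM in large-fibre-rich spots, 2.23-fold between the outer sets (interval 2.17 to 2.30). Adcyap1, which encodes the peptide PACAP, was at 77.8, 41.1 and 25.8 CPM, 3.01-fold (2.56 to 3.55). This was the highest ratio outside the genes that made the split. Gfra3, the receptor for artemin, was at 223, 136 and 93.5 CPM, 2.39-fold (2.18 to 2.61). Calcb was at 227 against 128 CPM and Trpv1 at 111 against 67.0 CPM. Per spot the sets overlapped: the median of Calca was 1419 CPM in nociceptor-rich and 872 CPM in large-fibre-rich spots.

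Outside the genes that made the split, others among the 15 highest were Amigo2, Ada, Cartpt, Chrna3, Ngb, Anxa8, Tnnc1, Cpne5, Mmd and Nnat. Chrna3 was at 106 against 49.9 CPM, 2.12-fold (1.88 to 2.40), and Ada, which breaks down adenosine, at 50.6 against 22.0 CPM. Nnat was at 235 against 131 CPM.

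Of the 5 non-peptidergic genes with 200 or more UMIs, 1 was higher and 4 lower, with a median of -0.05. The median was 0.33 when spots were ordered by the ratio of Scn10a to Nefm instead. Ret was at 205 against 212 CPM, while Cd55 was at 85.2 against 59.5 CPM. General sensory neuron genes split into 6 higher and 6 lower, with a median of 0.00118, and of the 11 excitability genes with 200 or more UMIs, 6 were higher and 5 lower.

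Large-fibre genes went the other way, with 14 of 16 lower in nociceptor-rich spots and a median of -0.25, 2 of them past 1.5-fold. Pvalb was at 203 CPM in nociceptor-rich, 230 CPM in middle and 322 CPM in large-fibre-rich spots, 1.59-fold lower (1.49 to 1.70). Hapln4, a link protein of the matrix around nodes of Ranvier and neurons, was at 71.1 against 113 CPM. Nefl was at 5396 against 8075 CPM, Slc17a7, the vesicular glutamate transporter VGLUT1, at 226 against 335 CPM, and Spp1 at 509 against 727 CPM. Of the 8 synaptic release genes, 6 were lower (median -0.30), with Vamp1 at 886 against 1118 CPM, and Syt1 and Vamp2 were higher. The 15 lowest genes were Mab21l2, S100g, Coro6, Cryba4, Pla2g7, Vstm2b, Car2, Ntng1, RGD1307461, LOC680254, Lgi2, Rgs6, Pvalb, Hapln4 and Rem2. Mab21l2 was at 11.6 against 25.9 CPM, 2.24-fold lower (1.73 to 2.94). S100g was at 58.3, 60.0 and 128 CPM in nociceptor-rich, middle and large-fibre-rich spots, while its medians per spot were 56.8 CPM in nociceptor-rich and 69.2 CPM in large-fibre-rich spots, with single spots of up to 1286 CPM among the latter. Car2, which encodes a carbonic anhydrase of large sensory neurons, was at 78.9 against 132 CPM.

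**Figure D3:**
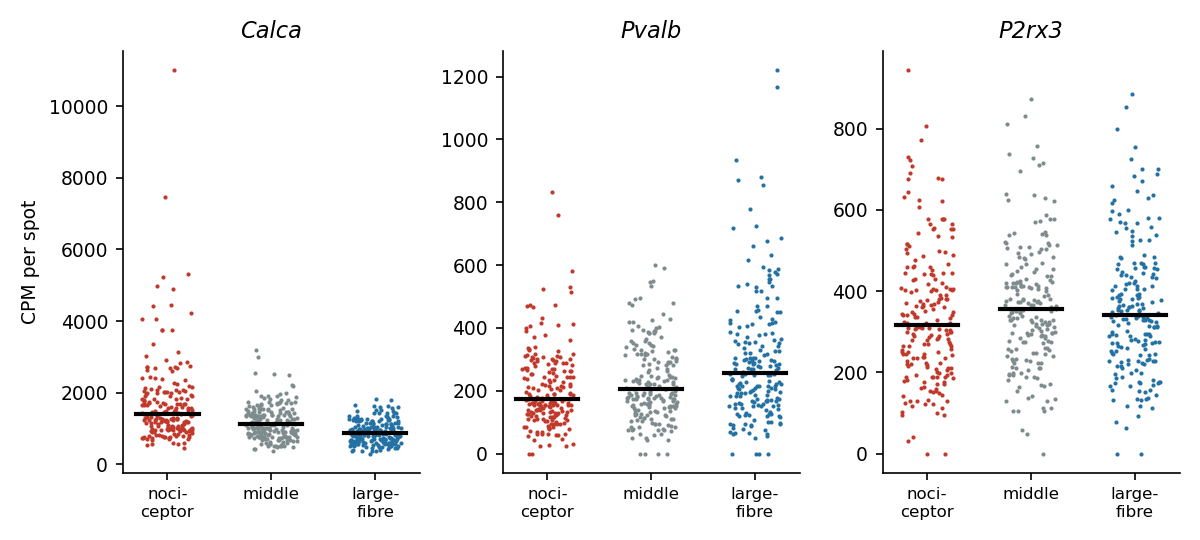
CPM per spot of Calca, Pvalb and P2rx3 in nociceptor-rich, middle and large-fibre-rich HC spots (200 points each), with the median as a bar. Calca medians step down from 1419 to 872 CPM and those of Pvalb step up from 174 to 256 CPM, with wide overlap. The P2rx3 medians are 316 and 341 CPM in the outer sets, and the choice of the 600 spots used this gene.

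Split into 6 groups of 100 spots by the same share, Calca and Gfra3 had their largest step between the first group and the second. Calca was at 2420 CPM in the first, then 1443, 1303, 1202, 987 and 806 CPM, and Gfra3 at 290, 143, 145, 127, 106 and 83.9 CPM. Nefl and Spp1 had their largest step into the last group, while Kcna2 and Scn4b had no main step there. Nefl was at 5323 CPM in the first and 9426 CPM in the last, and Spp1 at 507 and 859 CPM. Kcna2 was at 271, 283, 316, 301, 316 and 338 CPM. Some members of the large-fibre list were found in few molecules or none. Runx3 had 0 UMIs in each group, and Ntrk3 had 3 in the first, at most 7 and 0 in the last. Piezo2 had 9 UMIs in the first group and 21 in the last, and Scn8a had 8 in both.

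**Figure D4:**
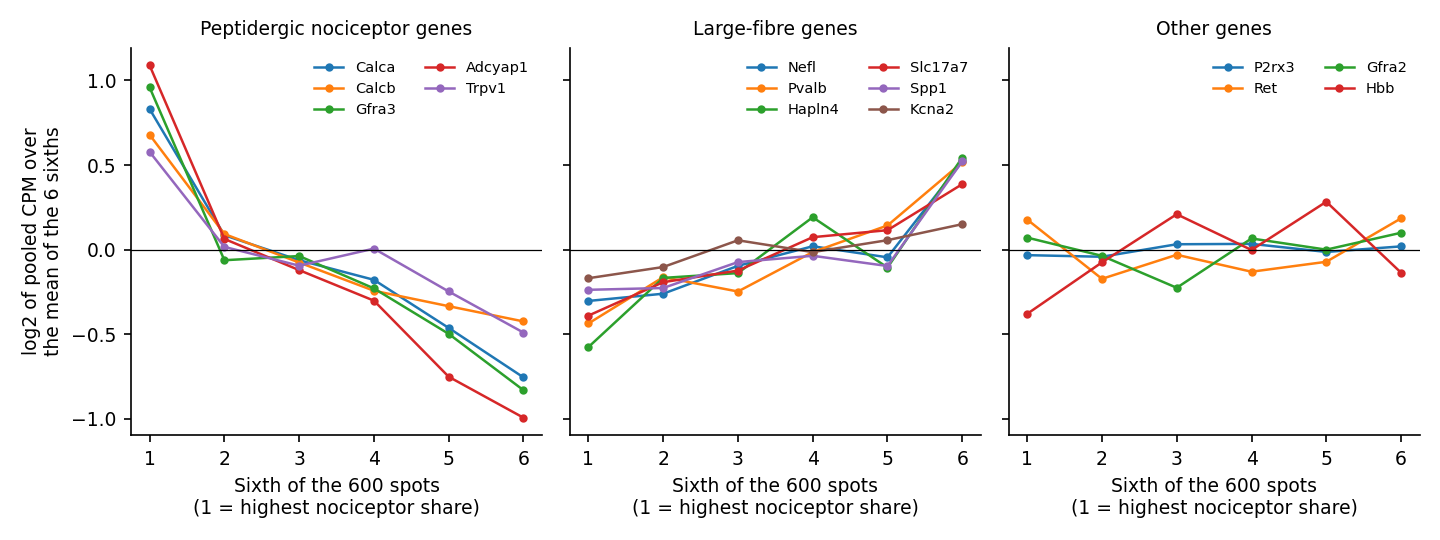
Log2 level of named genes in 6 groups of 100 neuron-rich HC spots, ordered from the highest (1) to the lowest (6) nociceptor share and centred on the mean of the 6 groups. Calca, Gfra3 and Adcyap1 have their largest step from the first group to the second, and Nefl, Pvalb and Spp1 theirs into the last. P2rx3, which the choice of the 600 spots used, stays near 0.

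Other cell types differed between the sets as well. All 9 Schwann myelin genes with 200 or more UMIs were higher in nociceptor-rich spots (median 0.47), and the list summed to 20508 CPM against 14330 CPM. In the spots below the median of Schwann myelin genes, chosen after seeing the data, the median of that list was 0.13. Choosing spots by a list limits that list's own difference, so this value is a description only. In the same spots the median of the peptidergic genes was 0.87 and that of the large-fibre genes -0.26. Of the 6 blood and bone genes with 200 or more UMIs, 5 were lower (median -0.44), among them Hbb at 162.1 against 199.2 CPM. The exception was Bglap, the bone protein osteocalcin and the most abundant of the list in nociceptor-rich spots, at 175 against 103 CPM. In the spots below the median of that list, also chosen later, the peptidergic median was 0.86 and the large-fibre median -0.31. That of the blood and bone genes was 0.04, again limited by the choice. The blood and bone median of -0.44 turned to 0.392 when spots were ordered by the ratio of Scn10a to Nefm. Satellite glia, astrocyte and macrophage genes had medians of -0.07, -0.00233 and -0.00754, with summed levels of 9804 against 10271, 511 against 517 and 225 against 219 CPM.

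The 3 TN areas gave samples that the HC rule had not used, and the contrast was tested in them. Of TN1, TN2 and TN3, 175 spots (11.03% of the area), 70 (5.57%) and 72 (3.76%) reached 10000 UMIs and the 1307.19 CPM of the last HC spot. The 58, 23 and 24 spots of each area with the highest share were set against as many with the lowest. UMIs were summed over each set, and the sums were compared within areas with edgeR's quasi-likelihood test and Benjamini-Hochberg adjustment (2 residual degrees of freedom). The test also borrows the spread of the other genes. Its p-values therefore rest on more than these 2 degrees and do not measure a gene's own spread between animals alone. Of 8575 genes, 162 were higher (1.89%) and 168 lower (1.96%) in nociceptor-rich spots at an adjusted threshold of 0.05. Without TN1 there were 71 and 71, and with DESeq2 30 and 32. When the sets were not compared within areas, edgeR called 2 and 0. The areas hold injured ganglia, and the spots of each set were again chosen by the same 4 genes, which are not counted. Genes whose levels go along with these 4 from spot to spot differ through this choice. The p-values are therefore conditional on the sorting and are no independent test of it.

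Of the 7 peptidergic genes tested, 6 were called higher and none (0) lower. Calca was at 2083, 3380 and 2696 CPM in the nociceptor-rich spots of TN1, TN2 and TN3 and at 497, 1606 and 1001 CPM in the large-fibre-rich spots. The sets did not overlap between areas. By edgeR its log2 fold change was 1.52 ± 0.10 (SE), at an adjusted p of 1.61e-13. Gfra3 was at 216, 232 and 255 CPM against 74.9, 106 and 86.5 CPM (1.40 ± 0.11). Adcyap1 (1.33 ± 0.13), Trpv1 (1.38 ± 0.12) and Calcb (0.98 ± 0.11) also rose. Gal did not pass, with 323, 305 and 197 CPM against 151, 438 and 160 CPM (adjusted p = 0.351 with edgeR), with a log2 fold change of 0.30 that was -0.23 without TN1 and 0.80, a called rise, without TN2. The 6 called genes kept their calls with each TN area left out and with DESeq2.

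All 18 large-fibre genes tested were lower, and 9 were called. Among these were Nefl, Pvalb, Spp1, Scn4b, Kcna2, Hapln4, Slc17a7 and Vsnl1. Pvalb was at 119, 128 and 80.1 CPM in nociceptor-rich spots against 305, 213 and 214 CPM (-1.18 ± 0.11 by edgeR, adjusted p = 1.51e-09). Slc17a7 was at 109, 94.6 and 97.3 CPM against 308, 182 and 161 CPM, with a log2 fold change of -1.16 ± 0.12. For both genes the sets did not overlap between areas. The 9 kept their calls with each TN area left out, and with DESeq2 all but Kcna2 and Scn4b did. Of the 8 synaptic release genes tested, Syt1 was called higher and 4 lower, among them Vamp1, Syt2 and Cplx1. Without TN1, Vamp1 and Syt2 lost their calls, and with DESeq2 Syt1, Vamp1 and Syt2 did. Of the 6 non-peptidergic genes tested, 5 were higher, with a median log2 fold change of 0.38, and the list medians were above 0 in every TN area (0.37, 0.32 and 0.31), against -0.05 in HC, a difference that was not tested over the list. Of these genes 1, Cd55, was called higher, and its call was lost without TN1. Ret was at 302, 272 and 282 CPM against 270.5, 187 and 247 CPM and was not called (adjusted p = 0.0862 with edgeR). Of the 12 general sensory neuron genes, 2 were called higher and 1 lower, and of the 13 excitability genes 2 and 2.

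The largest called rises were those of Mal2, Krt75, Bglap, Amigo2 and Adgrv1, and the largest falls those of Vstm2b, Smpx, Phospho1, Mab21l2 and Dhrs2. Bglap was at 181, 67.8 and 48.7 CPM in nociceptor-rich spots of TN1, TN2 and TN3 against 29.1, 33.8 and 29.2 CPM (1.89 ± 0.20 by edgeR, adjusted p = 2.08e-08). Without TN1 its log2 fold change was 0.89. With DESeq2 its adjusted p was 0.45. The other blood and bone genes tested (4) were not called, and Hbb was at 291, 49.1 and 149 against 292, 66.8 and 141 TMM-normalized CPM. Mab21l2 had a log2 fold change of -1.36 ± 0.25 and Dhrs2 one of -1.34 ± 0.16. Without TN1, Vstm2b, Smpx and Mab21l2 lost their calls, as Phospho1 did without TN3, and with DESeq2 Vstm2b, Mab21l2 and Dhrs2 were not called. Of the 10 Schwann myelin genes, 1, Egr2, was called higher, which was lost without TN1 or TN2. By area the list had median log2 ratios of 0.51, 0.01 and -0.31 (TN1 to TN3), so that the areas differed in direction.

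The TN areas were then read against the HC description. Of the 42 genes that were 1.5-fold or more higher in HC, 41 had 20 or more UMIs in every TN area. Of these, 28 were higher in all 3 areas, and edgeR called 25 higher and none (0) lower. Of the 21 lower genes, 19 had values in every area, 15 were lower in all 3 and 1 (Tial1, named after its values were seen) was higher in all 3, and 15 were called lower and none (0) higher. Over the 6709 genes with values in HC and a test in TN, 151 were called higher and 166 lower. Of the 6646 of them with values in every area, 1231 (18.5%) were higher in all 3 and 1084 lower in all 3. Cartpt did not follow, at 37.9 against 4.78 CPM in TN1, 22.3 against 16.4 CPM in TN2 and 10.1 against 67.8 CPM in TN3. In a test of the difference of the contrast between TN and HC, added after seeing the data, 0 of 10114 genes passed with edgeR, and 294 had an unadjusted p under 0.05. With 1 HC sample this does not show that the contrasts were alike.

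**Figure D5:**
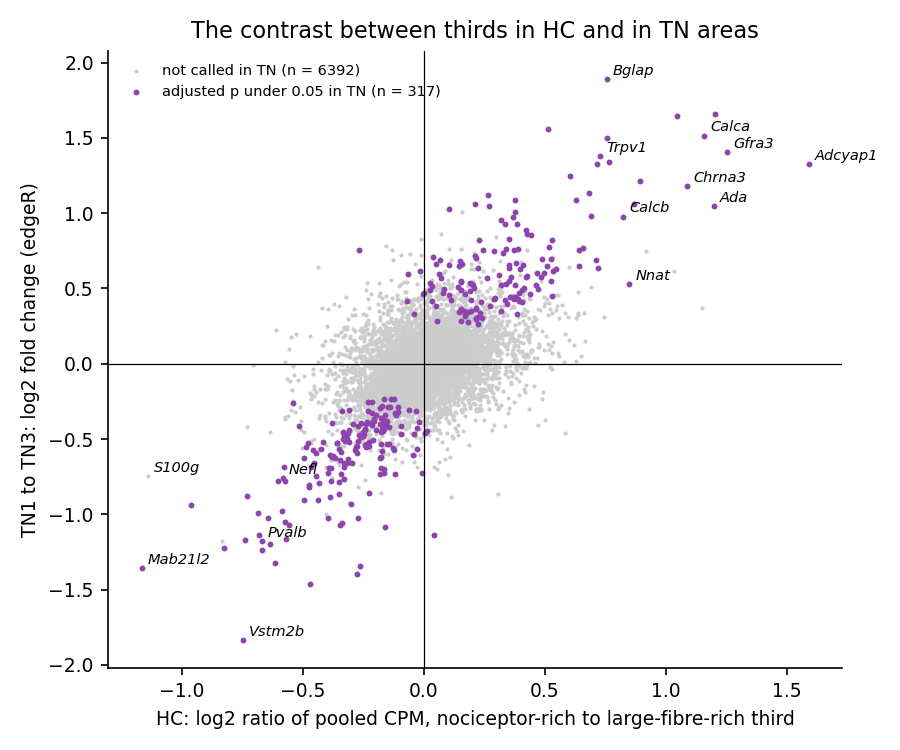
Each point is 1 of 6709 genes, placed by its log2 ratio between nociceptor-rich and large-fibre-rich spots in HC and by the edgeR log2 fold change of the same contrast in TN1 to TN3. Purple points (317) passed an adjusted p of 0.05 in TN. Calca, Gfra3 and Adcyap1 lie at the upper right, and Pvalb, Nefl and Mab21l2 at the lower left.

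Finally, the neuron-rich spots of the TN areas were compared with those of HC as sums per area, 3 against 1. TN spots had to reach the HC threshold, so they stand for 11.03%, 5.57% and 3.76% of their areas, against 29.8% in HC. The summed marker levels were alike through this choice (1845, 1796 and 1750 CPM in TN, 1815 CPM in HC). Neurons in TN spots below the threshold were not compared. As a single sample, HC was assumed to vary as the TN areas do, and condition cannot be told apart from capture area. Mitochondrial genes took a median of 6.76%, 5.29% and 5.87% of the UMIs per spot in TN1, TN2 and TN3 and 4.35% in HC, and their part in the differences was not tested. Of 11420 genes, edgeR called 5 higher (0.0438%) and 3 lower (0.0263%) in TN. Csrp3, a LIM domain protein, was at 37.1, 51.4 and 40.8 TMM-normalized CPM in the TN areas and at 0.772 in HC (5.77 ± 0.36 by edgeR, adjusted p = 0.00851). Atf3, a transcription factor of injured neurons, was at 113, 187 and 107 against 4.92, and Vip, which encodes a peptide, at 28.5, 33.1 and 20.4 against 1.69. RT1-Da and RT1-Ba, of MHC class II, were also higher. S100a8 (3.53, 3.23 and 3.46 against 44.1), S100a9 and RT1-T24-4 were lower. Without TN2, RT1-Ba, Vip and S100a9 lost their calls. Without TN1, edgeR called 589 higher and 572 lower. With 150 spots from each TN area, 1 gene in all, S100a8, was called. Gal, at 230.03, 392.3 and 167 against 23.3, did not pass with edgeR (adjusted p = 0.156), though leaving out any single TN area gave a called rise. All 7 nerve injury genes tested were higher, and 2 were called, and all 9 blood and bone genes were lower, 2 of them called.

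Of the neuronal genes in the spots past the threshold, Calca was at 1220, 2451 and 1808 in TN against 1400 in HC. Tac1 was at 1151, 1227 and 1422 against 1226, and both genes lay on either side of HC. Nefh was at 3486, 2957 and 2851 against 5364, lower in all 3 areas (-0.79 ± 0.16), but did not pass (adjusted p = 0.279 with edgeR). The 22 large-fibre genes tested had a median of -0.41, with 16 lower and 0 called, and the 10 synaptic release genes one of -0.40, with 10 lower and 0 called. The summed level of macrophage genes in these spots was 493, 864 and 779 CPM in TN and 228 CPM in HC, and that of fibroblast genes 1079, 2758 and 2567 CPM in TN and 1141 CPM in HC. Of the other lists, Schwann myelin genes had a median of -0.53 (7 of 10 lower), central myelin genes one of -0.81 (6 of 8 lower) and astrocyte genes one of -0.76 (5 of 5 lower), with none (0) called. The 4 genes of central inhibitory neurons were all higher (median 2.78, 0 called) and summed to 11.7, 3.58 and 0.347 CPM in TN and 1.17 CPM in HC. The part of these cell types in the differences was not tested.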

How the data were processed

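Spatial gene expression was measured by Visium on 4 capture areas (TN1, TN2, TN3 and HC). UMI counts were produced by the authors with Space Ranger 1.2.0 (file header). The deposited counts are whole numbers, used here as raw counts, for 32623 genes and 6773 spots. The genome build and annotation were not given in the sources used here, and STAR is named in the submitters' processing notes. Whether the depth of the areas was equalised when they were joined is not known, and this bears on the cut at 10000 UMIs and the spot numbers per TN area.

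The members and gene lists were chosen with earlier results of these data known. Of 188 listed symbols, 185 were found. CPM were pooled over spots. Ratios within HC have exact binomial 95% intervals, which cover counting error only, and no test, because HC is 1 sample and spots are not replicates. Named were the 10 highest and 10 lowest ratios against other HC spots, 15 and 15 between the sets of 200 spots, the 5 largest called changes in each direction of each edgeR test, and genes of the lists. Some of these genes are not reported here. For TN, UMI sums per area entered the quasi-likelihood test of edgeR 4.0.16 in R 4.3.3, after TMM scaling and filterByExpr, with the capture area as a block for the 2 sets of spots, which come from the same section. DESeq2 1.42.0 was an alternative. On simulated counts, edgeR recovered 90% of log2 changes of 1 and 100% of 2 between the sets in TN, with 8 false calls among 8579 genes, and 40% and 91% between TN and HC, with 11 among 11425. The simulated counts took their spread from the fitted trend, with no differences between areas and no sorting of spots by measured genes. They gave HC the same spread as TN. They therefore do not give the error rate in the chosen spots. P-values for TN rest on 3 animals and on a spread shared over genes. Spot positions, images and doublet calling were not used.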

Additional observations from a re-analysis of the deposited data

Results flagged for a closer look

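The median of the central myelin genes had one sign in HC and the other in the TN areas. Between nociceptor-rich and large-fibre-rich spots, the 5 genes of the list with 200 or more UMIs had a median log2 ratio of 0.06 (0.06419) in HC, with 3 higher and 2 lower, whereas in the TN areas they had -0.24, -0.07 and -0.53. That of HC lay near 0 and was -0.17 when spots were thinned to 10000 UMIs and -0.096 with the mean of CPM per spot. The difference was not tested, and none (0) of the 6 genes of the list tested in TN was called.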

How the results depend on the processing

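Most results kept their direction. Against other HC spots, the number of genes 2-fold or more higher (86) was 29 with 400 spots, 319 with 800, 38 with z-scored markers, 241 with the mean of CPM per spot, 45 without mitochondrial, ribosomal protein and hemoglobin genes, and 54 against other spots with 10000 or more UMIs. The number lower (346) stayed between 264 and 485. The median of Schwann myelin genes (-0.42) turned to 0.00827 with 800 spots and to 0.126 with the mean of CPM per spot. Between the sets of 200 HC spots, the number higher (42) was 17 after thinning to 10000 UMIs, where 3321 genes were tested, and 30 to 58 otherwise. The number lower (21) was 12 with 400 spots, 41 with 800, 32 with the mean of CPM per spot, 32 in spots low in blood and bone genes (chosen after seeing the data), 42 between the outer sets of 150 spots and 42 with the ratio of Scn10a to Nefm. With that ratio, 13 of the 42 higher genes were shared the peptidergic median was 0.54, and that of the non-peptidergic genes was 0.33 in place of -0.05. The blood and bone median (-0.44) turned to 0.0352 in spots low in those genes and to 0.392 with Scn10a and Nefm. The cause was not tested.

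In TN, the contrast called 162 genes higher and 168 lower. Without the replicate block, that is with no pairing of the 2 sets of an area, edgeR called 2 and 0. With the block kept, DESeq2 called 30 and 32. Leaving out 1 TN area gave 71 to 227 higher and 71 to 237 lower, with the lowest numbers without TN1. For TN against HC (5 and 3), no filter on low counts gave 40 and 33, the 150 highest spots per TN area gave 0 and 1, DESeq2 gave 76 and 53, and leaving out 1 TN area gave 5 to 589 higher and 2 to 572 lower. With 150 spots, 1093 genes had an unadjusted p under 0.05. No paired analysis was possible because HC carries no number shared with a TN animal. Genes under 10 CPM rest on few UMIs per spot, and the TN sets hold 23 to 58 spots.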
